A study of Mus musculus with 12 samples.

Results

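The transcripts described here encode the enzymes of glycolysis, lactate dehydrogenase, the pyruvate dehydrogenase complex and the citric acid cycle. They are 37 genes, listed by symbol and matched to 1 Ensembl identifier each, of the 57180 genes counted in kidney. No measured value entered the list, but it was chosen with earlier results of these data known. Of these, 16 belong to glycolysis and lactate dehydrogenase, and 21 to the pyruvate dehydrogenase complex and the cycle. All 37 passed the filter on low counts.

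Poly(A) RNA was sequenced from the kidneys of 12 male C57BL/6J mice, which were 60 days old at the start and were injected intraperitoneally once a day for 28 days. The control group received the vehicle alone, saline with the detergent Tween 80, and the other groups received cannabidiol (CBD, a compound of the cannabis plant). The daily dose was 10 mg/kg body weight (b.w.) in one group and 20 mg/kg b.w. in the other. Each group held 4 mice, with 1 library per mouse. The comparisons ask whether either dose of CBD altered the level of these transcripts in the kidney, and whether the doses differed. A whole-organ library mixes all kidney cell types, so fewer cells of a type and less RNA per cell cannot be told apart.

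Glycolysis splits glucose into pyruvate in the cytosol, and lactate dehydrogenase interconverts pyruvate and lactate. The pyruvate dehydrogenase complex turns pyruvate into acetyl-CoA in mitochondria, where the citric acid cycle oxidises it and passes electrons to the respiratory chain. In kidney, proximal tubule cells depend mainly on mitochondrial oxidation and also make glucose, whereas glycolytic enzymes such as hexokinase are more active in distal segments.

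Libraries held between 15417867 and 23532088 counts on genes. Levels are given as CPM, counts scaled to a common library total. Kidney markers were present, with a mean of 18538 CPM in control mice for Kap of the proximal tubule and 555 CPM for Umod of the thick ascending limb. The share of counts on mitochondrially encoded genes, called the mitochondrial share below, ranged from 3.53 to 23.4%. It was under 10% in 4 libraries (Control replicate 2, 10 mg replicates 1 and 3, and 20 mg replicate 3) and at least 12.8% in the other 8. In those 4 libraries 16.1 to 19.9% of uniquely mapped reads were assigned to no annotated feature, against 12.1 to 16.3% in the others. Whether those reads lay in introns or between genes is not given in the sources used here.

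Promoters are shown for Ldhb, Pfkl, Pgk1 and Gapdh, picked from the members whose level moved with the mitochondrial share (described below). Each has a single promoter in the RefSeq table. The table (build GRCm38.p6) matched 35 of the 37 genes. Each line holds the 250 bases before the start of the gene on its own strand, and capitals mark every ACGTG and GCGTG on either strand, the 2 forms of the core to which hypoxia-inducible factors bind.
Ldhb, chr6:142507958-142508207, minus strand: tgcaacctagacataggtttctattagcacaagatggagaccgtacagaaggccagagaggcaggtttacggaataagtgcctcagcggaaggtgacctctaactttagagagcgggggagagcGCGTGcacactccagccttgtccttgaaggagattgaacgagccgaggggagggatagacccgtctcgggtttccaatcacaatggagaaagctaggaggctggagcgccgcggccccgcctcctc
Pfkl, chr10:78009808-78010057, minus strand: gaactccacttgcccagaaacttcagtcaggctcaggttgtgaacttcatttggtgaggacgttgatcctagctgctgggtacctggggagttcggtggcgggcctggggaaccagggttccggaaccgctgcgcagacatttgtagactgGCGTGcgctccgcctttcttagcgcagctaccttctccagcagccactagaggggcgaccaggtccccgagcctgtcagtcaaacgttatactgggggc
Pgk1, chrX:106186850-106187099, plus strand: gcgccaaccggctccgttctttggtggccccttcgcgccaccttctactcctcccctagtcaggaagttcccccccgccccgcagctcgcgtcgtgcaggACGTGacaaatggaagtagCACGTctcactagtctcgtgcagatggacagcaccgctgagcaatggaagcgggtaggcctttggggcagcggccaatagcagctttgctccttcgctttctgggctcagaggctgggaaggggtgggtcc
Gapdh, chr6:125165774-125166023, minus strand: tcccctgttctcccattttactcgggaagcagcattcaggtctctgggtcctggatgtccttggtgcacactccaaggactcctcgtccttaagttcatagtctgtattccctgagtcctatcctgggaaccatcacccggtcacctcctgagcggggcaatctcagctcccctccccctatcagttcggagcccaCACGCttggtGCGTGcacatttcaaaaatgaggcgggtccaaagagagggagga
Ldhb, Pfkl and Pgk1 lay lower where the mitochondrial share was higher, and Gapdh lay higher. Pgk1 held 2 matches to ACGTG and none to GCGTG, Gapdh held 2 matches to GCGTG, and Ldhb and Pfkl held 1 each. Tpi1, Gpi1, Dlst, Sucla2, Suclg2 and Idh3b, whose level also moved with the share, held neither form. Fh1 and Sdha, which did not pass the test along the share, held GCGTG. Over all members, ACGTG was present in 37.3% of 51 promoters and GCGTG in 51.0%, against 16.6 and 28.2% of the 32851 promoters in the table. Some genes have several promoters. Counted by gene, the shares were 34.3 and 57.1% of the 35 members, against 18.5 and 30.9% of all genes. The CACGTG form, bound by clock factors and MYC and containing ACGTG, was present in 9.80% of the members' promoters and 6.02% of all. A match describes these letters and does not show binding.

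In control kidneys the enzymes differed widely in level. Per kilobase of the canonical transcript, Ldhb, the lactate dehydrogenase subunit of oxidative tissues, was highest at 841 ± 167 CPM per kilobase (SD, n = 4). Aldoa, an aldolase, followed at 521 ± 66.7, Gapdh at 454 ± 115 and Tpi1, triosephosphate isomerase, at 343 ± 31.9 CPM per kilobase. Aldoa and Gapdh did not differ beyond their spread, and neither did Tpi1 and Sdha, the flavoprotein subunit of succinate dehydrogenase, at 337 ± 27.2 CPM per kilobase. The lowest was Hk2, the insulin-responsive hexokinase of muscle and fat, with 6 to 31 counts per library and 0.134 ± 0.0666 CPM per kilobase. Pklr, the liver and red cell pyruvate kinase, at 8.42 ± 2.20, and Pfkp, the platelet type of phosphofructokinase, at 9.26 ± 1.57 CPM per kilobase, were next. The 37 genes summed to 12798 ± 801 CPM in control mice (SD, n = 4), 12643 ± 1508 CPM at 10 mg and 11483 ± 1048 CPM at 20 mg, and these ranges overlapped. Per-kilobase levels depend on which transcript is taken as canonical.

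**Figure D1:**
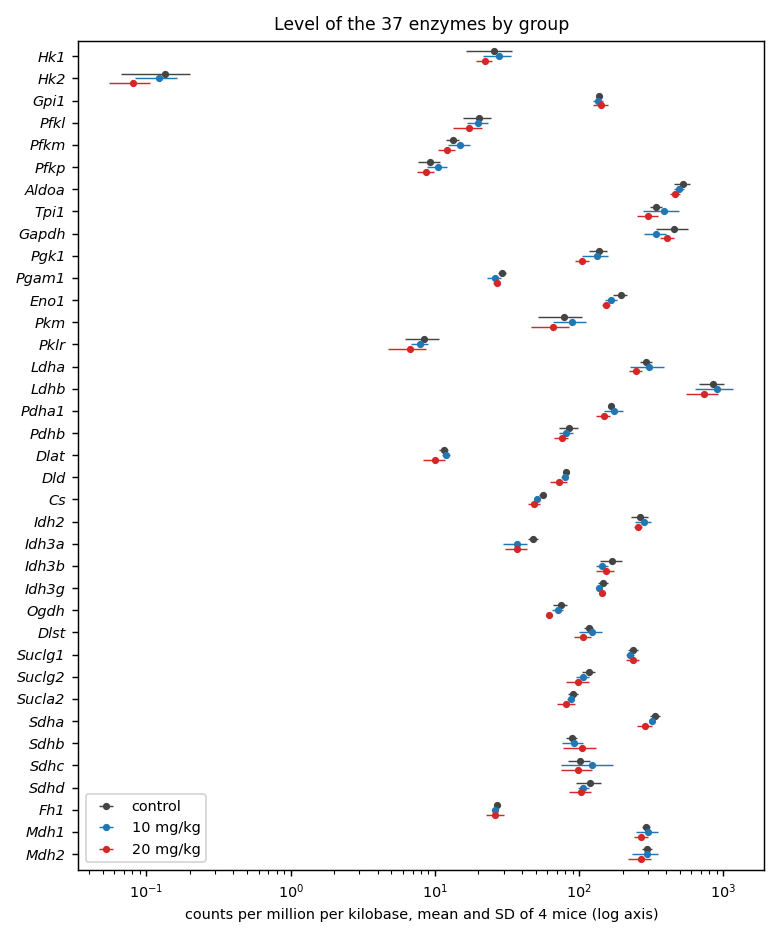
Level of each of the 37 enzymes in CPM per kilobase (horizontal log axis), as the mean (point) and SD (line) of 4 mice in the control (grey), 10 mg/kg (blue) and 20 mg/kg (red) groups. Ldhb is highest and Hk2 lowest in each group, and the groups overlap for most genes.

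At 10 mg CBD/kg b.w., 0 of the 37 genes passed the test (edgeR quasi-likelihood test, Benjamini-Hochberg adjusted p under 0.1), against 0.0291% of all 17163 genes tested. At an unadjusted p under 0.05, 2 members stood out, Idh3a and Gapdh, both lower, where 5.67% of all genes did so and 2.34% did so with lower levels. DESeq2 also called 0 members. The median log2 fold change of the members was -0.04 and that of all genes 0.01. Of the members, 23 lay below control, where 47.7% of all genes did. The median was -0.08, with 27 below control, when the mitochondrial share was a covariate, and -0.11, with 30 below control, in the 8 libraries with a share of at least 10%.

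At 20 mg CBD/kg b.w., again 0 members passed the edgeR test, against 0.303% of all genes. The unadjusted p was under 0.05 for Eno1, Idh3a, Pgk1 and Ogdh. All 4 were lower, at a threshold that 8.45% of all genes met and 3.53% met with lower levels. The median log2 fold change of the members was -0.17 against 0.01 for all genes, and 34 of 37 lay below control, where 47.5% of all genes did. The exceptions were Gpi1, Suclg1 and Sdhb, and of these Gpi1 and Suclg1 fell on the other side of 0 when libraries were scaled by their totals alone. Both doses were compared with the same 4 control mice, so their values are not independent of each other. The 2 libraries with the highest mitochondrial share, 20.6 and 23.4%, were both from the 20 mg group, and 10 mg had 2 of the 4 libraries under 10%. With the share as a covariate the median at 20 mg was -0.11, with 32 below control. In the 8 libraries with a share of at least 10% it was -0.16, with 33 below control.

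Between the doses, 0 members passed, as did 0% of all genes, and only Pfkm had an unadjusted p under 0.05, where 6.31% of all genes did and 2.84% did so with lower levels. The median log2 difference, 20 mg against 10 mg, was -0.14 against -0.00 for all genes, and 28 of 37 members were lower at 20 mg, where 50.6% of all genes were. This median was -0.05 with the share as a covariate (22 lower), -0.04 in the 8 libraries with a share of at least 10% (25 lower) and -0.22 with libraries scaled by their totals alone (35 lower). At the precision of 4 mice per group, the 95% intervals of all 36 members other than Hk2 lay within 1 log2 unit of 0 in each comparison with control. Within 0.5 log2 units lay the intervals of 27 of them at 10 mg and 18 at 20 mg.

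**Figure D2:**
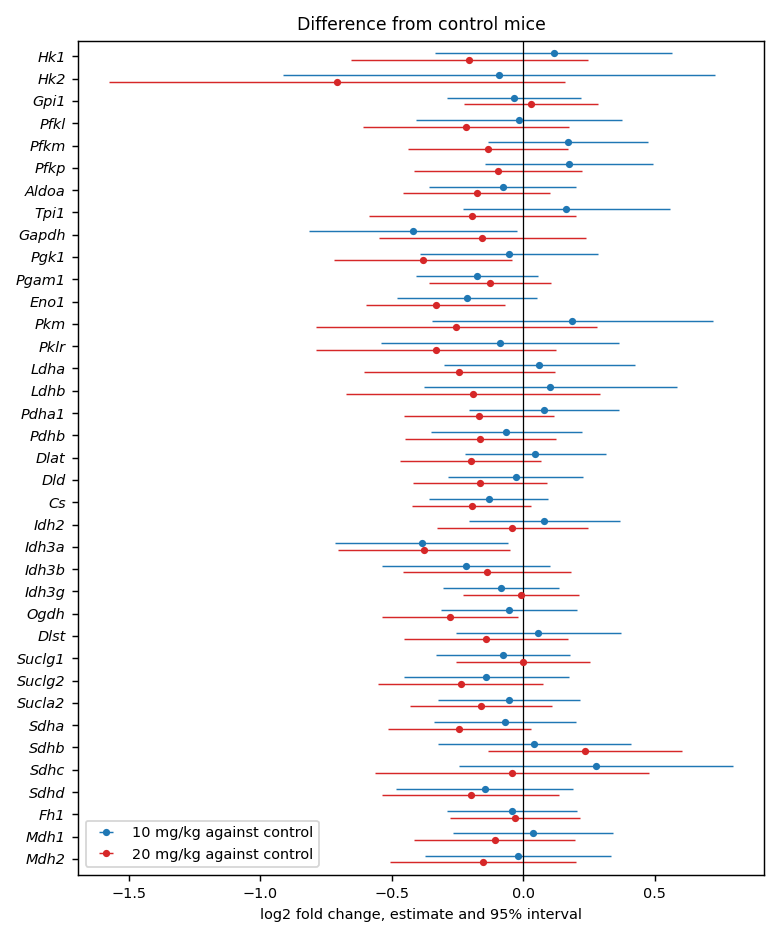
Log2 fold change of each enzyme against control mice (horizontal axis), with the 95% interval of the edgeR fit, at 10 mg/kg (blue) and 20 mg/kg (red). At 20 mg/kg, 34 of 37 points lie below 0 and none passed the adjusted test.

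The first reactions of glycolysis showed no difference that passed the test. The median of these 8 genes was 0.05 at 10 mg and -0.18 at 20 mg on the log2 scale. Hk2 had the lowest log2 fold change of any member at 20 mg, -0.71 (SE 0.41, edgeR adjusted p = 0.694), which was -0.39 without Control replicate 4 and -0.41 in the 8 libraries with a share of at least 10%. Its level was 0.588, 1.24, 0.655 and 1.69 CPM in the control mice, 1.37, 0.660, 0.813 and 0.998 CPM at 10 mg and 0.820, 0.718, 0.360 and 0.621 CPM at 20 mg. The groups overlapped, and 6 to 31 counts per library gave this gene the widest interval. Hk1, the more abundant hexokinase gene, was 101, 163, 73.9 and 97.9 CPM in the control mice, 133, 102, 91.7 and 147 CPM at 10 mg and 85.6, 89.1, 91.9 and 112 CPM at 20 mg. Its groups overlapped, with the highest value in Control replicate 2. Gpi1, glucose-6-phosphate isomerase, varied little, at 410, 397, 379 and 419 CPM in the control mice, 433, 362, 395 and 378 CPM at 10 mg and 373, 373, 471 and 422 CPM at 20 mg. The highest value was 20 mg replicate 3, a library with a low mitochondrial share.

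Phosphofructokinase commits sugar to glycolysis and is made in muscle (Pfkm), liver (Pfkl) and platelet (Pfkp) types. Pfkm was 55.1, 60.2, 47.7 and 50.1 CPM in the control mice, 73.6, 55.2, 62.0 and 49.2 CPM at 10 mg and 43.1, 42.3, 55.0 and 53.8 CPM at 20 mg. The groups overlapped, and the log2 difference of 20 mg from 10 mg was -0.31 (SE 0.14, unadjusted p = 0.0488, edgeR adjusted p = 0.785). It was -0.19 without 10 mg replicate 1 and -0.13 with the share as a covariate and mitochondrial genes removed. Pfkl was 80.9, 107, 63.9 and 78.5 CPM in the control mice, 94.8, 64.9, 90.3 and 76.6 CPM at 10 mg and 57.5, 58.5, 91.5 and 76.8 CPM at 20 mg, and Pfkp was 38.8, 47.0, 31.1 and 42.7 CPM in the control mice, 46.0, 42.6, 37.5 and 54.0 CPM at 10 mg and 36.3, 33.0, 36.0 and 44.2 CPM at 20 mg. The groups of both genes overlapped. Pfkp at 10 mg had a log2 fold change of 0.18 (SE 0.15), which was 0.07 without Control replicate 3 and 0.36 in the 8 libraries with a share of at least 10%. Pfkl had -0.02 (SE 0.18) at 10 mg, and at 20 mg they had -0.09 and -0.22. Tpi1 was 585, 605, 512 and 503 CPM in the control mice, 846, 483, 666 and 475 CPM at 10 mg and 432, 402, 574 and 520 CPM at 20 mg. Its log2 difference of 20 mg from 10 mg was -0.36 (SE 0.18), with 10 mg replicate 1 the highest library. Without that mouse it was -0.17, and in the 8 libraries with a share of at least 10% it was -0.08.

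Of the 6 genes of the later, energy-yielding reactions, all 6 lay below control at 20 mg, with a median log2 fold change of -0.29. Eno1, enolase, was 503, 431, 380 and 460 CPM in the control mice and 356, 321, 355 and 376 CPM at 20 mg. Eno1 has no exon overlap with another gene (GRCm39 chr4:150321073-150337027). Every mouse at 20 mg lay below every control mouse, although the lowest control and the highest treated mouse were only 380 and 376 CPM. The log2 fold change was -0.33 (SE 0.12), a fold of 0.794, with an edgeR unadjusted p of 0.0173 and an adjusted p of 0.475. Groups in which all mice of the 20 mg group lay below all control mice occurred for 2.63% of all genes, and for Eno1 and Ogdh among the members. At 10 mg Eno1 was 378, 352, 434 and 366 CPM, which overlapped the controls.

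Pgk1, phosphoglycerate kinase, makes the first ATP of glycolysis. It was 275, 283, 204 and 237 CPM in the control mice and 189, 165, 197 and 215 CPM at 20 mg. Only the highest treated mouse, replicate 4, lay above the lowest control mouse, replicate 3. The log2 fold change was -0.38 (SE 0.16), a fold of 0.768, with an edgeR unadjusted p of 0.0298, an adjusted p of 0.53 and an exact permutation p of 0.0571 (two-sided, smallest possible 0.0286). At 10 mg the 2 libraries with a low mitochondrial share had 301 and 263 CPM and the other 2 had 204 and 194 CPM.

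Gapdh, glyceraldehyde-3-phosphate dehydrogenase, which is often used as a reference gene, was 672, 436, 639 and 835 CPM in the control mice. At 10 mg it was 392, 537, 431 and 573 CPM, and at 20 mg 613, 637, 496 and 572 CPM. The lowest value in each group was in a library with a low mitochondrial share, and 10 mg had 2 such libraries against 1 in each other group. The log2 fold change at 10 mg was -0.42 (SE 0.19, unadjusted p = 0.0395, edgeR adjusted p = 0.843, exact permutation p = 0.143). It was -0.27 without Control replicate 4 and -0.33 with the share as a covariate. Reads of Gapdh may also be assigned elsewhere, since 41.7% of its exon bases overlap exons of Iffo1 on the other strand and it has many pseudogenes. Exons of other genes also covered 43.8% of the exon bases of Aldoa, 40.6% of Pkm, 39.8% of Pfkl, 33.7% of Idh3g and 32.9% of Pklr. The strand setting of the counting is not given in the sources used here.

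Pkm, the pyruvate kinase of most tissues, varied by 2.48-fold over the 12 mice, and was 190, 276, 122 and 176 CPM in the control mice, 293, 158, 204 and 213 CPM at 10 mg and 124, 118, 211 and 188 CPM at 20 mg. Its log2 fold change was 0.19 (SE 0.25) at 10 mg and -0.25 (SE 0.25) at 20 mg, and -0.44 (SE 0.25) between the doses. Without 10 mg replicate 1 the 10 mg value was 0.00 and the difference between doses -0.26. Without Control replicate 2 the 10 mg value was 0.42, and with the share as a covariate and mitochondrial genes removed the values were 0.07 and -0.12. Pklr was 39.1, 21.2, 26.0 and 29.3 CPM in the control mice, 24.7, 27.8, 32.1 and 24.3 CPM at 10 mg and 23.2, 30.8, 14.4 and 23.5 CPM at 20 mg, and its lowest mouse was 20 mg replicate 3. Neither pyruvate kinase gene passed the test. Pgam1, phosphoglycerate mutase, had a log2 fold change of -0.18 (SE 0.11) at 10 mg and -0.13 (SE 0.11) at 20 mg.

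Of lactate dehydrogenase, Ldha, the subunit of glycolytic tissues, was 500, 496, 443 and 415 CPM in the control mice, 592, 381, 596 and 366 CPM at 10 mg and 378, 346, 447 and 395 CPM at 20 mg. Ldhb was 1337, 1627, 1085 and 1098 CPM in the control mice, 1849, 1024, 1592 and 1066 CPM at 10 mg and 962, 829, 1435 and 1286 CPM at 20 mg. At 10 mg, replicates 1 and 3 were above the other 2 for both genes, and these were the libraries with a low mitochondrial share. Ldha had log2 fold changes of 0.06 (SE 0.17) and -0.24 (SE 0.17) at 10 and 20 mg, and Ldhb of 0.10 (SE 0.23) and -0.19 (SE 0.23). The ratio of Ldhb to Ldha per kilobase lay between 2.49 and 3.41 in all 12 mice and overlapped between groups. The 4 genes of the pyruvate dehydrogenase complex, Pdha1, Pdhb, Dlat and Dld, lay between -0.20 and -0.16 on the log2 scale at 20 mg and between -0.06 and 0.08 at 10 mg. None passed the test.

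**Figure D3:**
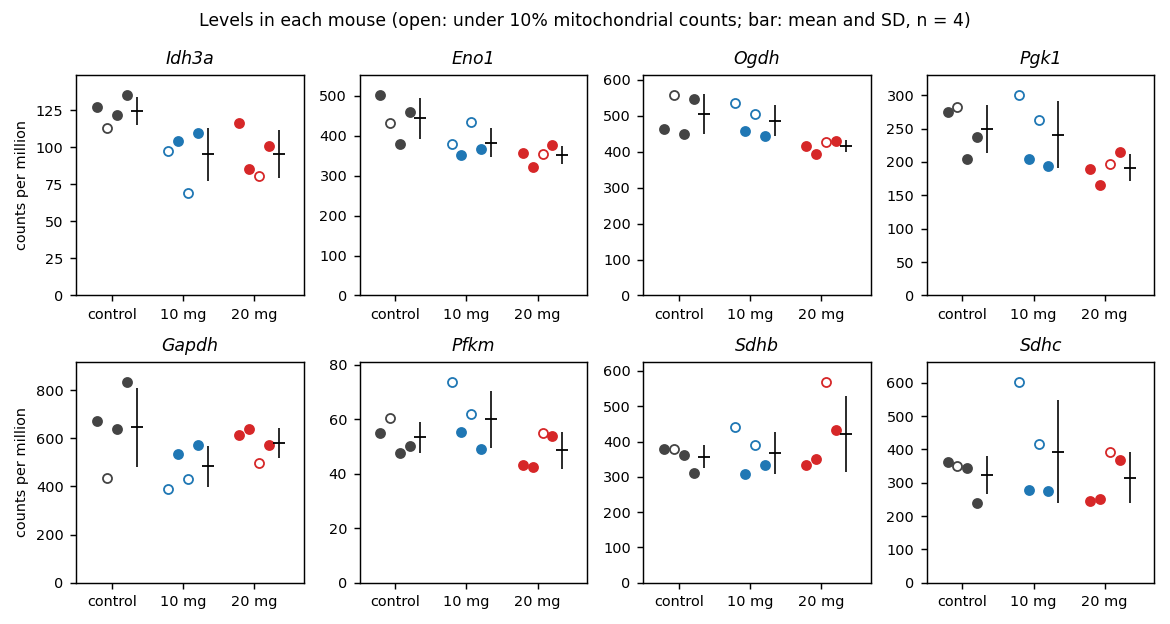
CPM (vertical axis, from 0) of 8 enzymes in each mouse, in the control (grey), 10 mg/kg (blue) and 20 mg/kg (red) groups. Open points are libraries with a mitochondrial share under 10%, and the bar beside each group is its mean and SD (n = 4). All 20 mg/kg mice lie below all control mice for Eno1 and Ogdh, and all 10 mg/kg mice for Idh3a.

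In the citric acid cycle, Idh3a, the catalytic subunit of NAD-dependent isocitrate dehydrogenase, was the only member with an unadjusted p under 0.05 at both doses. It was 127, 113, 122 and 136 CPM in the control mice, 97.4, 105, 69.1 and 110 CPM at 10 mg, and 116, 85.3, 80.7 and 101 CPM at 20 mg. All mice at 10 mg lay below all control mice, as for 1.64% of all genes, and at 20 mg only replicate 1 lay above the lowest control mouse. The log2 fold change was -0.39 (SE 0.15, unadjusted p = 0.0239) at 10 mg and -0.38 (SE 0.15, unadjusted p = 0.0267) at 20 mg, folds of 0.765 and 0.770. The edgeR adjusted p was 0.812 and 0.518. With the mitochondrial share as a covariate the 20 mg value was -0.45 (SE 0.13) and passed the edgeR test at an adjusted p of 0.062, in a fit that called 8.08% of all genes.

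Of the partner subunits, Idh3b was 292, 203, 286 and 306 CPM in the control mice, 217, 262, 214 and 241 CPM at 10 mg and 255, 259, 197 and 278 CPM at 20 mg, and its lowest value at each dose and in control mice was in a library with a low mitochondrial share. Idh3b and Idh3g had log2 fold changes of -0.22 (SE 0.15) and -0.08 (SE 0.10) at 10 mg and -0.14 (SE 0.15) and -0.01 (SE 0.10) at 20 mg. The 10 mg value of Idh3b was -0.34 without Control replicate 2, -0.16 without Control replicate 4 and -0.15 with the share as a covariate. The ratio of Idh3g to Idh3a per kilobase was 2.98, 2.96, 3.23 and 2.96 in the control mice and 3.32, 4.34, 4.53 and 3.77 at 20 mg. Each mouse at 20 mg lay above each control, and at 10 mg, with 3.55, 3.35, 5.41 and 3.22, only replicate 4 lay within the control range. This was the only one of 13 ratios of isozymes or subunits whose 20 mg and control groups did not overlap, and it was not adjusted for their number. Of the Idh3a exon bases (GRCm39 chr9:54493575-54514730), 22.9% overlap Acsbg1 on the other strand.

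Ogdh, the first subunit of 2-oxoglutarate dehydrogenase and a rate-controlling step of the cycle, was 464, 559, 449 and 548 CPM in the control mice, 537, 459, 505 and 444 CPM at 10 mg and 416, 393, 429 and 430 CPM at 20 mg. All mice at 20 mg lay below all mice of both other groups. The log2 fold change from control was -0.28 (SE 0.12, fold 0.825, unadjusted p = 0.0375, edgeR adjusted p = 0.555), and the log2 difference from 10 mg was -0.22 (SE 0.12, unadjusted p = 0.0865). Lower levels without overlap between the doses occurred for 1.40% of all genes. Its partner Dlst had a log2 fold change of -0.14 (SE 0.15) at 20 mg.

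The transcript of citrate synthase, Cs, was 153 to 175 CPM in control mice, 149 to 153 at 10 mg and 128 to 156 at 20 mg. Its log2 fold changes were -0.13 (SE 0.11) and -0.20 (SE 0.11). Idh2, the NADP-dependent isocitrate dehydrogenase of mitochondria, stayed within 395 to 558 CPM in all 12 mice.

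Succinate dehydrogenase is both a cycle enzyme and complex II of the respiratory chain, and its 4 subunits lay on both sides of 0. Sdhb, the iron-sulphur subunit, had the highest log2 fold change of any member at 20 mg, 0.24 (SE 0.17, edgeR adjusted p = 0.78), from 377, 379, 361 and 312 CPM in the control mice, 442, 307, 390 and 333 CPM at 10 mg and 332, 351, 569 and 432 CPM at 20 mg. The high value was replicate 3, a library with a low mitochondrial share, and without it the log2 fold change was 0.06. Sdha and Sdhd lay at -0.24 (SE 0.13) and -0.20 (SE 0.16) at 20 mg. Sdhc, a membrane anchor, had the highest log2 fold change at 10 mg, 0.28 (SE 0.24), at 363, 351, 344 and 240 CPM in the control mice, 603, 280, 417 and 275 CPM at 10 mg and 247, 252, 394 and 370 CPM at 20 mg. The high mouse at 10 mg was replicate 1, and without that mouse the value was -0.00.

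Succinyl-CoA synthetase, fumarase and malate dehydrogenase differed little. Suclg1, the subunit shared by both forms of the synthetase, was 382, 320, 362 and 374 CPM in the control mice, 336, 335, 373 and 321 CPM at 10 mg and 351, 311, 392 and 386 CPM at 20 mg, with overlapping groups. At 20 mg it had a log2 fold change of 0.00 (SE 0.12), Suclg2, of the GTP-forming enzyme, -0.24 (SE 0.15), and Sucla2, of the ATP-forming enzyme, -0.16 (SE 0.13). Fh1, fumarase, varied least in control mice, from 138 to 148 CPM, with log2 fold changes of -0.04 (SE 0.12) and -0.03 (SE 0.12). The cytosolic Mdh1 and mitochondrial Mdh2 were at -0.11 (SE 0.14) and -0.15 (SE 0.17) at 20 mg.

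More members passed the test along the mitochondrial share than between dose groups. In a fit of dose group and share together, 18 of 37 members passed the edgeR test for the slope along the share, 48.6% against 38.3% of all genes. Of these, 15 were lower and 3 higher with a higher share, where 19.6% of all genes were called lower and 18.7% higher. The share is part of the same counts, so a slope describes relative levels, and with libraries scaled by their totals alone 23 members were called, 22 lower and 1, Gapdh, higher. Each dose group held at least 1 library under 10% and 2 above. Leaving out single libraries kept 12 of the 18 calls in every case and ended those of Gpi1, Pdhb, Mdh1, Sucla2, Idh3b and Suclg2 in at least 1.

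Ldhb had the smallest adjusted p. Its level was 1627, 1849, 1592 and 1435 CPM in the 4 libraries with a low share, and 829 to 1337 CPM in the other 8, with no overlap. The slope was -0.53 per 10 percentage points on the log2 scale (SE 0.077, edgeR adjusted p = 0.000128). Pkm had the steepest slope, -0.55 (SE 0.10, adjusted p = 0.000542), and Sdhc followed Ldhb at -0.48 (SE 0.11, adjusted p = 0.0042). Pfkl was 90.3 to 107 CPM in the low-share libraries and 57.5 to 80.9 CPM in the others, again without overlap, with a slope of -0.42 (SE 0.066, adjusted p = 0.000212). Dlst and Mdh2 were likewise higher in all 4 low-share libraries than in the other 8. For 31 members the low-share and other libraries overlapped. How often all genes split in this way was not computed. Whether such splits were more frequent among the members was therefore not tested.

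Of the called members, Gapdh, Idh3b and Suclg2 were higher where the share was higher. Gapdh was 392 to 496 CPM in the 4 low-share libraries and 537 to 835 CPM in the others, with a slope of 0.33 per 10 percentage points (SE 0.094, edgeR adjusted p = 0.0136). Idh3b was 197 to 217 CPM against 241 to 306 CPM, with a slope of 0.25 (SE 0.080, adjusted p = 0.0278). Gapdh and Ldhb, both abundant, thus lay at opposite ends of the same libraries. The ratio of Suclg2 to Sucla2 per kilobase was 0.802 to 1.08 in the low-share libraries and 1.23 to 1.56 in the others, without overlap. Tpi1, Ldha, Pgk1, Pfkm, Sdhb, Mdh1, Sucla2, Pdhb and Gpi1 completed the called members, with slopes from -0.38 to -0.15, and Dlst and Mdh2 had -0.27 and -0.35. Cs, Dld, Fh1 and Sdha had slopes between -0.04 and 0.00 and did not pass. Pklr, unlike Pkm, had a positive slope, which did not pass in the reported fit. Leaving out single libraries gave Pklr slopes of 0.0109 to 0.0364 per percentage point, and 4 of these 12 fits called it.

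**Figure D4:**
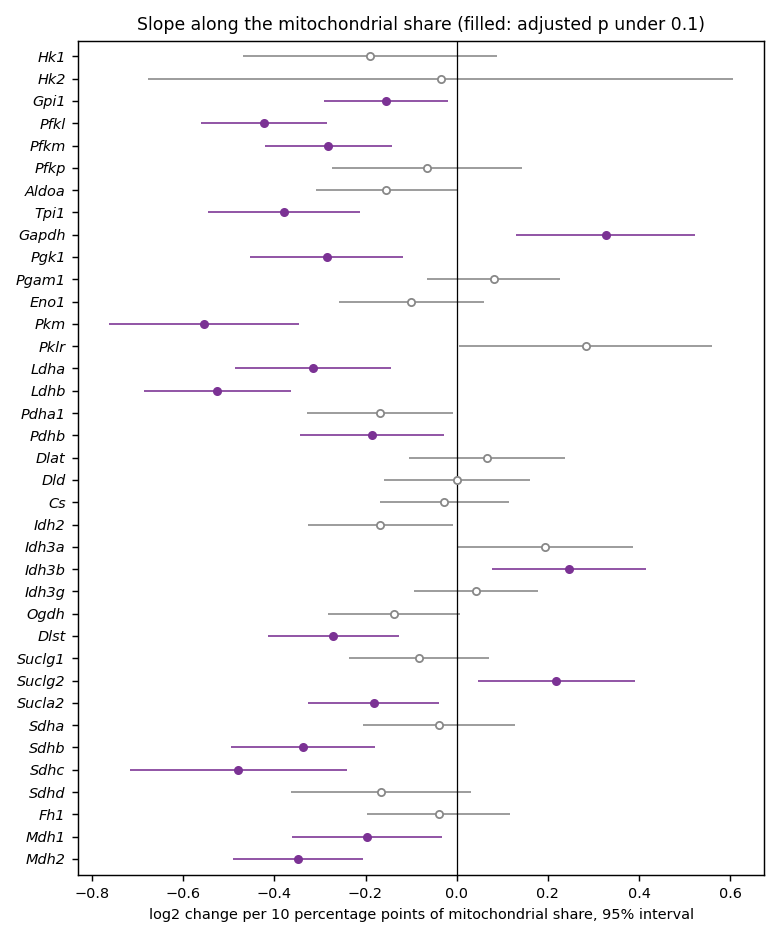
Log2 change of each enzyme per 10 percentage points of mitochondrial share (horizontal axis), with the 95% interval, from a fit that also holds the dose groups. Filled points passed the edgeR test at an adjusted p under 0.1: 15 lie below 0 and 3 (Gapdh, Idh3b and Suclg2) above.

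**Figure D5:**
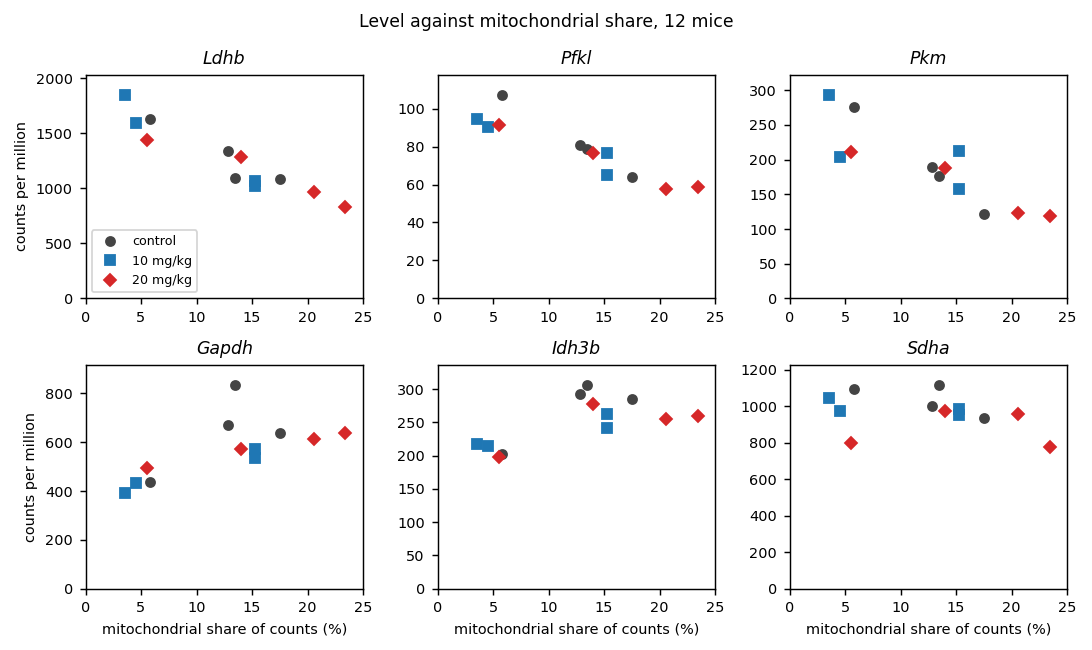
CPM (vertical axis, from 0) of 6 enzymes against the mitochondrial share of counts in percent (horizontal axis) in 12 mice of the control (grey circles), 10 mg/kg (blue squares) and 20 mg/kg (red diamonds) groups. Ldhb and Pfkl are higher in the 4 libraries under 10% than in the other 8, Gapdh and Idh3b are lower, and Sdha, which did not pass the test, shows no such split.

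Other genes that feed or regulate the pathway were listed beside the members: 53 genes, of which 47 were tested. At either dose 0 passed the edgeR test, while 22 of 47, 46.8%, passed for the mitochondrial share, against 38.3% of all genes. At an unadjusted p under 0.05 stood 2 genes at 10 mg, 4.26% against 5.67% of all genes, and 6 at 20 mg, 12.8% against 8.45%.

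Genes of glucose synthesis had the smallest unadjusted p at each dose among those listed. Pck1, phosphoenolpyruvate carboxykinase, was 2687, 3649, 3815 and 2645 CPM in the control mice, 4460, 5156, 5089 and 3985 CPM at 10 mg and 5816, 4526, 5339 and 4367 CPM at 20 mg. Neither dose group overlapped the controls, as for 1.55 and 2.67% of all genes with higher levels at 10 and 20 mg, with log2 fold changes of 0.55 (SE 0.18, unadjusted p = 0.00719, edgeR adjusted p = 0.796) and 0.65 (SE 0.18, unadjusted p = 0.00223, adjusted p = 0.295). G6pc1, glucose-6-phosphatase, lay in the other direction at 20 mg, at 442, 421, 455 and 524 CPM against 749, 601, 735 and 623 CPM in the control mice. The groups did not overlap, and the log2 fold change was -0.56 (SE 0.14, unadjusted p = 0.00139, adjusted p = 0.236).

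Slc16a1, a lactate and pyruvate carrier, and Glud1, glutamate dehydrogenase, had log2 fold changes of -0.71 (SE 0.21, unadjusted p = 0.00406, edgeR adjusted p = 0.342) and 0.38 (SE 0.12, unadjusted p = 0.00552, adjusted p = 0.364) at 20 mg. Glud1 was 584, 457, 469 and 454 CPM at 20 mg and 352 to 390 CPM in control mice, without overlap. Pdk4, the kinase that switches pyruvate dehydrogenase off, was named after its values were seen: it was 76.8 to 240 CPM in control mice, 41.9 to 102 at 10 mg and 45.8 to 112 at 20 mg, with log2 fold changes of -0.99 (SE 0.36) and -0.96 (SE 0.36) and adjusted p of 0.812 and 0.474.

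Markers of kidney cell types that use these enzymes to different degrees were compared beside them. The summed level of 10 proximal tubule markers was 27501 to 29740 CPM in control mice, 26880 to 32142 at 10 mg and 25334 to 33936 at 20 mg, and Kap made up most of it. At 20 mg the median log2 fold change of the 10 markers was -0.24, beside -0.17 for the members, and 7 of 10 lay below control. The other 3, Slc7a13, Napsa and Kap, lay above control, at 0.33, 0.30 and 0.11. An unadjusted p under 0.05 was reached by 3, all lower, 30.0% against 8.45% of all genes, among them Lrp2, an endocytic receptor, at 2227 ± 314 CPM in control mice and 1319 ± 301 CPM at 20 mg (log2 fold change -0.76, SE 0.18, edgeR adjusted p = 0.173). Of these 10, 1 passed the edgeR test at 20 mg, the glucose transporter Slc5a2, which fell from 217 ± 16.2 to 143 ± 13.6 CPM (log2 fold change -0.61, SE 0.12, edgeR adjusted p = 0.082). No marker of the other 10 cell type lists passed at either dose. At 20 mg the median was -0.35 for distal convoluted tubule markers (4 of 4 below control) and -0.18 for intercalated cell markers (3 of 4). It was -0.07 for the thick ascending limb, -0.08 for red blood cells and -3.17 for adipocytes. Principal cell, podocyte, endothelium and immune cell lists had medians from 0.01 to 0.10, and the 1 skeletal muscle marker tested lay at 0.38. The 4 adipocyte markers, of which 3 passed the filter on low counts, summed to 4.84 to 81.2 CPM in control mice, 0.452 to 29.0 at 10 mg and 0.120 to 15.4 at 20 mg, and the 5 red blood cell markers to 627 to 1470, 639 to 1169 and 711 to 1693 CPM. Of 4 skeletal muscle markers 1 passed the filter on low counts, and all 4 summed to 1.09 to 1.51 CPM in control mice. Their part in the members' levels was not tested.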

How the data were processed

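The authors selected poly(A) RNA, prepared directional libraries (Lexogen CORALL), trimmed reads with Flexbar, mapped them with STAR 2.7.5c to GRCm39 and counted them with HTSeq 1.99.2 (versions from the submitters' processing notes). Each deposited file holds whole counts per Ensembl gene for 1 library, without normalization. The annotation release, strand setting and use of molecular identifiers are not given in the sources used here. Summary lines were left out: 12.1 to 19.9% of uniquely mapped reads had no feature and 4.72 to 5.29% were ambiguous. Symbols, exon overlaps and canonical transcript lengths came from GENCODE vM39 (99.0% of identifiers matched).

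Counts were normalized by TMM in edgeR 4.0.16 (R 4.3.3). Genes kept by filterByExpr (17163) were tested with a quasi-likelihood model of 3 group means over all 12 libraries, with p-values adjusted by Benjamini-Hochberg over all genes and called under 0.1. The mitochondrial share entered as a numeric term in a second fit. Single genes were also compared by exact permutation of 4 against 4 mice (70 arrangements). CPM use TMM-scaled totals. Library totals ranged from 15417867 to 23532088 counts, and all errors rest on the spread between mice. The procedures were tested on simulated data. No pair of libraries was identical. The labels do not say whether replicate numbers pair mice across groups.

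The members, lists and roles were chosen with earlier results of these data known. Values in every mouse were given for the isozymes of hexokinase, phosphofructokinase, pyruvate kinase and lactate dehydrogenase, the 3 highest and 3 lowest log2 fold changes of each comparison and slopes along the share, members with an unadjusted p under 0.05 in a comparison of dose groups, and members whose groups did not overlap with control. The other listed genes named were those with an unadjusted p under 0.01. Members called along the share beyond the 3 in each direction were given by range or slope, and further members to describe each step. Alternatives were other scalings, DESeq2 1.42.0, limma-voom (limma 3.58.1), other filters and thresholds, a replicate block, the share as a covariate and leaving out each library. 2 more were chosen after seeing the data: using the 8 libraries with at least 10% mitochondrial counts, and removing mitochondrial genes with the share as a covariate.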

Additional observations from a re-analysis of the deposited data

Results flagged for a closer look

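In 111 sets of 4 mice (37 genes in 3 groups), 2 held a mouse far from the others by Dixon's test at the 95% level, and chance alone marks about 1 in 20 such sets. Dlat, of the pyruvate dehydrogenase complex, was 72.2 CPM in 10 mg replicate 3 and 82.2 to 82.9 CPM in the 3 others at that dose. Sdhc was 240 CPM in Control replicate 4 and 344 to 363 CPM in the other control mice.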

How the results depend on the processing

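The count of members called stayed at 0 in the comparison of 10 mg with control and of 20 mg with 10 mg under every alternative fit. At the looser threshold of an unadjusted p under 0.05 it was 2, 4 and 1 at 10 mg, at 20 mg and between the doses. At 20 mg it was 1 with the mitochondrial share as a covariate (Idh3a, edgeR adjusted p = 0.062) and 2 with mitochondrial genes also removed (Idh3a and Sdhb, edgeR adjusted p = 0.0606 and 0.099), an alternative chosen after seeing the data. Over all genes, those 2 fits called 1386 and 1404 at 20 mg, 15 and 14 at 10 mg and 62 and 66 between the doses, where the reported fit called 52, 5 and 0. DESeq2 called 40, 182 and 12 genes in the 3 comparisons, a fit without a filter 331, 416 and 256, and the 8 libraries with at least 10% mitochondrial counts 26, 107 and 0, each with 0 members. Libraries with the same replicate number were only weakly correlated (12 same-number pairs, r from -0.33 to 0.317), which does not settle whether the numbers pair mice. With the replicate block 0 members were called in each comparison, and 4, 27 and 0 genes overall. Leaving out each library in turn gave 0 members called throughout, 2 to 8 genes at 10 mg, 14 to 54 at 20 mg and 0 between the doses. The median log2 fold change of the members ranged from -0.08 to 0.01 at 10 mg, above 0 without Control replicate 2, and from -0.21 to -0.10 at 20 mg.

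Small differences changed sign. Suclg1 at 20 mg was -0.0034 with RLE factors and with DESeq2, -0.059 with totals alone, -0.0016 with limma-voom, -0.013 without a filter, -0.0015 with the compared groups only and with the replicate block, and -0.093 in the 8 libraries with at least 10% mitochondrial counts (-0.052 to 0.064 leaving out a library). Gpi1 at 20 mg was -0.032 with totals alone and -0.047 in the 8 libraries (-0.045 to 0.071). Sdhc at 10 mg was -0.19 in the 8 libraries (-0.0047 to 0.41). Idh3b, 20 mg against 10 mg, was -0.0020 with totals alone and -0.071 with the share as a covariate, with or without mitochondrial genes. Along the share, 15 members were called without a filter, 23 with totals alone, and 14 to 20 leaving out a library. With totals alone the calls of Idh3b (0.16 per 10 percentage points, edgeR adjusted p = 0.147) and Suclg2 (0.13, adjusted p = 0.247) ended, and without a filter those of Gpi1, Pdhb, Sucla2 and Mdh1 (adjusted p from 0.153 to 0.303). Calls also ended for Idh3b without Control replicate 2 or 20 mg replicate 3 (0.18 and 0.21 per 10 percentage points), for Suclg2 without 10 mg replicate 2 or 20 mg replicate 3 (0.20 and 0.11), for Sucla2 without 20 mg replicates 2 or 3 (-0.12 and -0.20), for Mdh1 without 10 mg replicates 1, 2 or 4 or 20 mg replicate 2 (-0.19 to -0.14), for Pdhb without Control replicates 2 or 3, 10 mg replicates 1 or 2 or 20 mg replicates 2 or 3 (-0.22 to -0.15), and for Gpi1 without Control replicate 3, 10 mg replicates 1, 2 or 4 or any 20 mg replicate (-0.16 to -0.13).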
